A study of Salmo salar with 54 samples.

Results

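Of the 18901 genes measured in salmon liver cells exposed to arsenic, 2 are described here: aox5 (GeneID:106574294), named for an aldehyde oxidase, and chst2 (GeneID:100195063), named for a carbohydrate sulfotransferase. They were chosen by name as enzyme genes with next to no reads in the controls and a large rise with arsenite. Their response to arsenite is therefore a description with no test, and near-silent controls are a property of the choice. The cells were primary hepatocytes isolated from the livers of 6 male Atlantic salmon (Salmo salar) by collagenase perfusion and grown on laminin-coated three-dimensional scaffolds. Cells of each fish were split over plates that received arsenite (AsIII, inorganic trivalent arsenic) at 0, 0.1, 1 or 3 µM or arsenosugar glycerol (AsSug, an organic arsenic compound) at 0, 5, 10, 50 or 250 µM. Exposure lasted 48 h, and both compounds were diluted in culture medium with serum. RNA was sequenced from 9 groups of 6 libraries, 1 library per fish and group, and every fish is present in every group, so n = 6 fish throughout.

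Aldehyde oxidases are molybdenum- and flavin-containing enzymes of the cytosol, abundant in liver, that oxidise aldehydes and nitrogen-containing rings of drugs and vitamins and release reactive oxygen species. They belong to the same family as xanthine dehydrogenase, and both enzymes need a molybdenum cofactor carrying a sulfur atom added by the sulfurase MOCOS. CHST2 is a Golgi enzyme, known best from human and mouse, that moves sulfate from the donor PAPS to the 6 position of N-acetylglucosamine on glycan chains such as keratan sulfate and ligands of selectins. Neither enzyme's activity nor its protein was measured here.

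Values are normalised reads, the gene's read count divided by 1 size factor per library, and they can be set beside each other between libraries but not between genes of different length. Depth at 250 µM AsSug was 0.898 to 5.38 M reads per library, against 8.79 to 24.0 M in the 48 other libraries. A count of 0 allows up to 3 reads, which equal 5.08 to 28.2 normalised reads at 250 µM and 1.35 to 4.20 elsewhere. The samples at 250 µM were labelled as differing in RNA integrity, and their libraries have a separate number series in the file header, so concentration, RNA integrity and library series cannot be told apart in that group. The arsenite groups and their control share 1 series, as do the AsSug control, 5, 10 and 50 µM. Outside 250 µM, the library of fish 1 at 0.1 µM AsIII stood apart, with 4083 genes more than 2-fold from the median of the other 5 libraries of its group, against 91 to 907 genes in the 47 other libraries. The cells carried hepatocyte transcripts: 11 of 16 listed hepatocyte markers, among them albumin, transferrin and fibrinogen genes, summed to 775136 to 984228 normalised reads in the AsIII controls.

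Both genes were close to undetected in controls. In the AsIII control, aox5 had 2.77, 1.53, 5.29, 6.38, 3.29 and 4.65 normalised reads in fish 1 to 6, which rest on 31 reads in all. In the AsSug control it had 3.29, 3.99, 5.42, 4.26, 6.70 and 2.62 normalised reads, from 29 reads. The control ranges overlapped, and every control library held at least 1 read of aox5.

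For chst2 the AsIII control held 0.92, 1.53, 3.17, 2.13, 3.29 and 0 normalised reads in fish 1 to 6, from 14 reads. The AsSug control held 1.098, 0.997, 2.71, 4.26, 1.91 and 1.74 normalised reads, from 15 reads. Over the 12 control libraries the mean was 4.18 for aox5 and 1.98 for chst2, and chst2 had the third lowest control mean in the table. A total of 23 genes had a control mean no higher than that of aox5. Every gene in the deposited table reached 10 reads in at least 12 libraries. Outside the 1 and 3 µM AsIII groups 0 of these 23 did so, so all 23 met that count only with libraries of those groups. Of the 23 genes, 10 averaged at least 100 normalised reads at 3 µM AsIII, 5 at least as many as chst2 and 2 at least as many as aox5, aox5 and chst2 counted.

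At 0.1 µM AsIII neither gene left its control range in most fish. aox5 had 0, 6.31, 4.47, 7.64, 3.08 and 2.32 normalised reads (mean 3.97 ± 2.77, SD, against 3.99 ± 1.78 in the control), higher than control in 2 of 6 fish. chst2 had 16.8, 1.58, 0, 1.80, 2.05 and 2.32 normalised reads (4.09 ± 6.28 against 1.84 ± 1.29), higher in 3 of 6. The 16.8 comes from 12 reads in fish 1, in the library that stood apart, and the same library held 0 reads of aox5. Without that library the log2 change against control turned from 0.38 to -0.12 for chst2 and from -0.20 to 0.25 for aox5.

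At 1 µM AsIII both transcripts were present in every fish. aox5 had 151, 213, 99.5, 142, 91.3 and 44.7 normalised reads in fish 1 to 6, with a mean of 124 ± 58.2 (SD) and 905 reads in all. chst2 had 74.4, 68.5, 43.5, 54.4, 87.6 and 56.7 normalised reads, with a mean of 64.2 ± 15.8 and 451 reads. The lowest treated library stood above the highest control library for both genes, and across all genes 20.9% had all 6 libraries at 1 µM above all 6 controls.

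At 3 µM AsIII the levels were higher again. aox5 reached 2532, 2517, 1625, 1677, 1237 and 1206 normalised reads in fish 1 to 6 (mean 1799 ± 594, SD), from 11084 reads. chst2 reached 386, 269, 455, 429, 401 and 303 normalised reads (374 ± 72.9), from 2345 reads. For both genes the lowest library at 3 µM stood above the highest at 1 µM, a separation whose share over all genes was not counted. The lowest library at 3 µM also stood above the highest control for both. Across all genes, 28.3% had all 6 libraries at 3 µM above all 6 controls. Both shares are of genes in general, and nothing is read from them about 2 genes chosen for their rise.

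**Figure D1:**
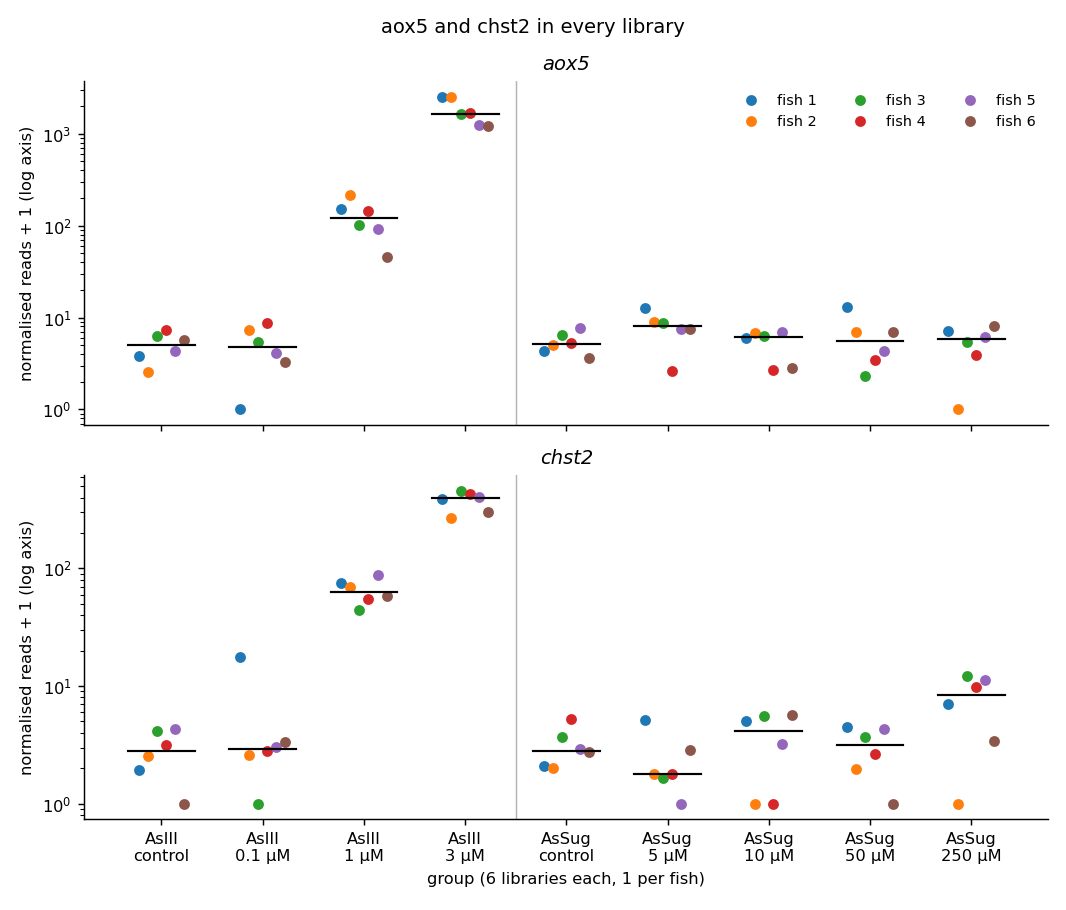
Normalised reads plus 1 of aox5 (upper panel) and chst2 (lower panel) in all 54 libraries on a log axis, by group along the horizontal axis. Each point is 1 fish, colours mark fish 1 to 6, and bars are group medians. The 6 libraries at 1 µM and the 6 at 3 µM AsIII stand above all 42 others for both genes, which were chosen for a large rise. Fish 1 is the high chst2 point at 0.1 µM.

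On the log2 scale after adding 1, aox5 was higher than control by 4.58 ± 0.38 (standard error of the limma fit, n = 6) at 1 µM AsIII and by 8.52 ± 0.38 at 3 µM. chst2 was higher by 4.64 ± 0.41 and 7.18 ± 0.41. All 6 fish moved the same way in each of these 4 comparisons. The share of all genes with such agreement was not counted, and the choice for a large rise favours it. The added 1 shrinks changes that start from so few reads, so the ratio of pooled reads was also taken, with a 95% interval for counting error only (exact binomial). By that measure aox5 stood at 30.7 times its control at 1 µM (21.5 to 45.5) and 425 times at 3 µM (299 to 626). chst2 stood at 33.9 times (19.99 to 62.5) and 199 times (118 to 365). Ordered by log2 change among all 18901 genes, aox5 was rank 10 at 1 µM and rank 6 at 3 µM, while chst2 was rank 9 and rank 15. High ranks follow from the choice of these genes for a large rise, and they rest on the changes after adding 1.

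The 2 genes had similar changes at 1 µM and moved apart at 3 µM. From 1 to 3 µM the level of aox5 was multiplied by 11.8 to 26.98 in single fish, with a median of 14.9. The level of chst2 was multiplied by 3.92 to 10.4, with a median of 5.27. The smallest of the 6 ratios of aox5 lay above the largest of chst2.

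**Figure D2:**
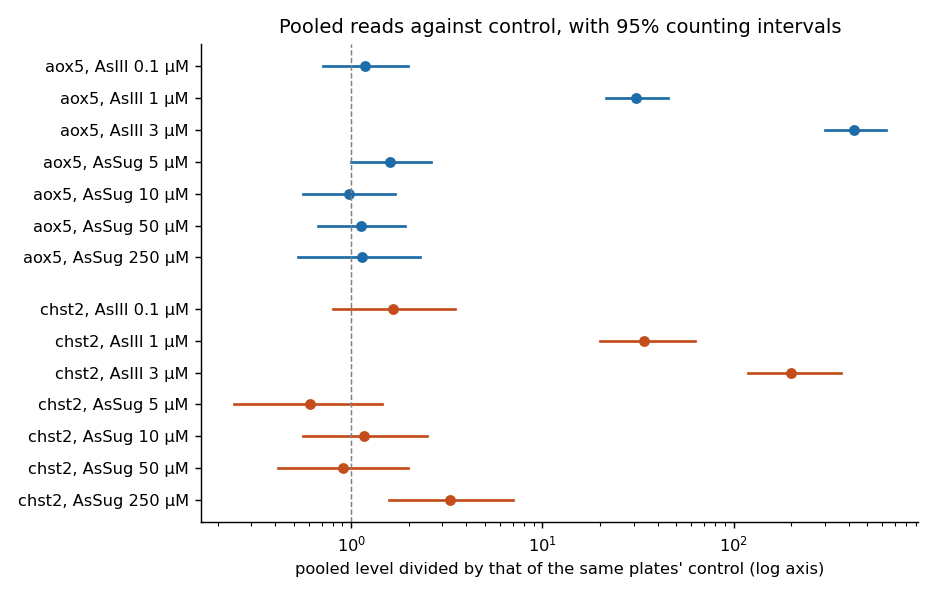
Pooled reads of each group divided by those of the control of the same compound, on a log axis, for aox5 (blue, upper 7 rows) and chst2 (orange, lower 7 rows). Lines are 95% intervals for counting error only, and the dashed line marks a ratio of 1. The ratios of 30.7 and 425 (aox5) and 33.9 and 199 (chst2) at 1 and 3 µM AsIII lie far to the right, and among the AsSug groups the interval of chst2 at 250 µM alone lies above 1.

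Levels of aox5 at 1 and 3 µM AsIII spread over the 6 fish, each with 1 library per group. At 1 µM AsIII, fish 2 had 213 and fish 6 had 44.7 normalised reads, and at 3 µM the same fish had 2517 and 1206. In the AsIII control they stood the other way, at 1.53 and 4.65 normalised reads, from 2 and 5 reads. Over the 6 fish, the log2 level at 1 µM correlated with that at 3 µM with Pearson's r = 0.857 and Spearman's rho = 0.943, given as a description with no test because the genes were chosen for their rise in these groups. Leaving out fish 2 and 6, the farthest from the median, gave r = 0.830. With 1 fish left out in turn r ran from 0.784 to 0.899, and with library totals in place of size factors it was 0.823. Libraries of a fish share its cell isolation, and the same correlation had a median of 0.405 over all genes, with 9.16% of genes at or above the value of aox5.

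For chst2 the levels at 1 and 3 µM correlated with r = -0.273 over the 6 fish (rho = -0.486), and without fish 3 and 5 r was -0.215. Among all genes, 87.7% had an r over the 6 fish at or above -0.273. Fish 3 had the lowest value at 1 µM (43.5 normalised reads) and the highest at 3 µM (455). Between the genes, the relation over fish was r = 0.210 at 1 µM (rho = 0.0857) and -0.0315 without fish 2 and 6. At 3 µM it was r = -0.226 (rho = -0.143), and 0.787 without fish 1 and 2. The difference between the genes was not tested.

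**Figure D3:**
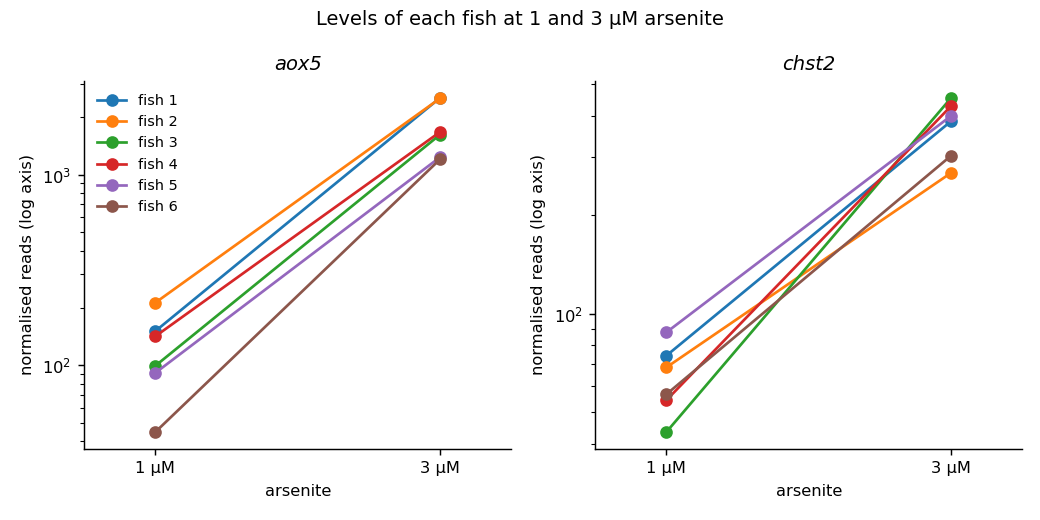
Normalised reads on a log axis at 1 and 3 µM AsIII for aox5 (left) and chst2 (right), with 1 line per fish. Fish keep nearly the same order for aox5 (Spearman's rho 0.943), while lines cross for chst2 (rho -0.486), where fish 3 goes from the lowest value, 43.5, to the highest, 455.

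The arsenosugar contrasts played no part in the choice beyond the near-silent controls, whose values each contrast uses. They were tested with limma over all 18901 genes. Each AsSug group held only 10 to 51 reads of either gene, so the lack of a call does not show the lack of a change. aox5 was called at none of the 4 concentrations. It had 11.6, 7.90, 7.81, 1.605, 6.45 and 6.48 normalised reads at 5 µM (mean 6.97 ± 3.23, SD, against 4.38 ± 1.48 in the control), with a log2 change of 0.47 ± 0.37 (SE), a 95% interval of -0.29 to 1.23 and an adjusted p of 0.862. The change was higher in 4 of 6 fish, and fish 4 was the lowest.

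At 10 µM aox5 averaged 4.26 ± 1.95 normalised reads (range 1.70 to 5.92) and at 50 µM 5.18 ± 3.90 (1.33 to 12.2). The limma log2 changes were -0.09 ± 0.37 (interval -0.85 to 0.67, adjusted p = 0.987) and 0.02 ± 0.37 (-0.74 to 0.78, adjusted p = 0.991). Both groups overlapped the control. At 250 µM aox5 had 6.05, 0, 4.44, 2.91, 5.08 and 7.16 normalised reads from only 12 reads, with a change of -0.24 ± 0.87 (-2.09 to 1.61, limma adjusted p = 0.824) that turned to 0.18 without the shallow library of fish 2. By pooled reads aox5 stood at 1.60, 0.9746, 1.13 and 1.14 times its control at 5, 10, 50 and 250 µM AsSug, with upper ends of the counting interval at 2.62, 1.69, 1.90 and 2.30, against 30.7 times at 1 µM AsIII. Concentrations of the compounds were not matched, so the values stand side by side without a test.

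chst2 was likewise called at none. Its means were 1.37 ± 1.48 (SD) normalised reads at 5 µM, 2.57 ± 2.17 at 10 µM and 2.00 ± 1.37 at 50 µM AsSug, against 2.12 ± 1.22 in the control, with at least 1 library at 0 in each. The limma log2 changes were -0.51 ± 0.54 (SE; interval -1.62 to 0.60, adjusted p = 0.916), -0.06 ± 0.54 (-1.17 to 1.05, adjusted p = 0.994) and -0.14 ± 0.54 (-1.25 to 0.97, adjusted p = 0.963). These groups rest on 10, 18 and 15 reads, and the added 1 shrinks the changes and their intervals here too. By pooled reads chst2 stood at 0.607, 1.17 and 0.908 times its control. The counting intervals were 0.244 to 1.45, 0.557 to 2.49 and 0.413 to 1.99. Changes within these intervals could not be told from none at this depth.

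At 250 µM AsSug chst2 had 6.05, 0, 11.1, 8.74, 10.2 and 2.39 normalised reads (6.41 ± 4.45, SD) from 18 reads, and 5 of 6 fish were above their control. The limma change of 0.93 ± 0.95 (SE; interval -1.08 to 2.95) did not pass (adjusted p = 0.404). The ratio of pooled reads was 3.30 with a counting interval of 1.57 to 7.04, which leaves out the spread between fish. edgeR on whole reads gave 1.66 with an adjusted p of 0.0533. In that comparison 63.0% of all genes were called, and leaving out the library of fish 2, with 0.898 M reads, gave 1.32 (limma adjusted p = 0.214).

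By mean level, aox5 ran from 3 µM AsIII down through 1 µM AsIII, then AsSug at 5 µM (6.97 normalised reads) and 50 µM (5.18), the AsSug control (4.38), AsSug at 250 µM (4.28) and 10 µM (4.26), the AsIII control (3.99) and 0.1 µM AsIII (3.97). chst2 ran from 3 and 1 µM AsIII through AsSug at 250 µM (6.41), 0.1 µM AsIII (4.09), AsSug at 10 µM (2.57), the AsSug control (2.12), AsSug at 50 µM (2.00), the AsIII control (1.84) and AsSug at 5 µM (1.37). The first 2 groups in each order stood clear of each other and of the rest, and each later neighbour overlapped the next in range. How many of all genes separate in this way was not counted, and both genes were chosen for their rise in those 2 groups.

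Of the other genes that make or use the molybdenum cofactor, 6 were measured under a symbol. At 3 µM AsIII 3 of these rose, 1 fell and 2 were not called, with a median log2 change of 0.26, and at 1 µM 3 rose and 2 fell (median 0.15). Over all genes the median was -0.02 and -0.01, with 36.0% rising and 35.1% falling at 3 µM, 29.8% and 27.2% at 1 µM. The relatives of aox5 measured under a symbol were already abundant in controls. aox6, the other aldehyde oxidase under a symbol, rose from 331 ± 38.4 (SD) to 503 ± 64.0 and 470 ± 50.6 normalised reads at 1 and 3 µM, by 0.60 ± 0.12 (SE; limma adjusted p = 0.00014) and 0.51 ± 0.12 (adjusted p = 0.000516). xdh, the xanthine dehydrogenase gene, rose from 2095 ± 427 to 3821 ± 602 at 3 µM, by 0.88 ± 0.15 (limma adjusted p = 1.7e-05).

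mocos, the sulfurase that activates both kinds of enzyme, rose by 0.80 ± 0.12 at 1 µM and 0.77 ± 0.12 at 3 µM (limma adjusted p = 5.9e-06 and 5e-06). mocs3, which activates an earlier step of cofactor synthesis, fell by 1.28 ± 0.14 at 3 µM, from 53.9 to 21.4 normalised reads (limma adjusted p = 2.3e-08). The sulfite oxidase gene suox fell by 0.67 ± 0.12 at 1 µM and stood at -0.07 ± 0.12 at 3 µM (limma adjusted p = 7.5e-05 and 0.612). At 250 µM AsSug 4 of the 6 rose and 2 fell, with a median of 0.48 against -0.20 over all genes, and aox6 rose by 1.104 ± 0.17 (limma adjusted p = 4e-05). At that concentration 26.5% of all genes rose and 36.5% fell (5005 and 6899 genes, against 6455 and 4952 with library totals).

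Of the glycan sulfotransferases, 9 were measured under a symbol beside chst2. At 3 µM AsIII 6 fell and 3 rose, with a median log2 change of -0.99, where 35.1% of all genes fell and 36.0% rose. At 1 µM 3 fell, 1 rose and 5 were not called (median -0.35), where 27.2% of all genes fell and 29.8% rose. chst7, which like chst2 encodes a 6-O-sulfotransferase, rose from 69.6 ± 5.07 (SD) to 128 ± 11.8 normalised reads at 3 µM, by 0.86 ± 0.11 (SE; limma adjusted p = 3e-07). chst14, for a dermatan 4-O-sulfotransferase, fell by 0.59 ± 0.16 (limma adjusted p = 0.00205), and chsta fell by 1.51 ± 0.22 (adjusted p = 2e-06).

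Among the genes that sulfate heparan chains, hs3st1l2 (3-O-sulfation) rose by 2.20 ± 0.17 at 1 µM and 1.405 ± 0.173 at 3 µM (limma adjusted p = 5e-10 and 2e-07), while hs2st1a (2-O-sulfation) fell by 1.16 ± 0.18 and fell by 1.36 ± 0.18 (adjusted p = 9.7e-06 and 5.3e-07). The other 2-O-sulfotransferase gene, hs2st, fell by 0.71 ± 0.14 at 1 µM and rose by 0.67 ± 0.14 at 3 µM (limma adjusted p = 0.000137 and 0.00014), from 58.0 normalised reads in the control to 35.3 and 93.2. At 250 µM AsSug 1 of the 9 rose and 4 fell (median -0.78), against 2 and 3 with library totals and 2 and 4 with TMM factors. Of all genes, 26.5% rose and 36.5% fell there, with a median of -0.20. chst7 rose there by 1.17 ± 0.20 (limma adjusted p = 9.8e-05).

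**Figure D4:**
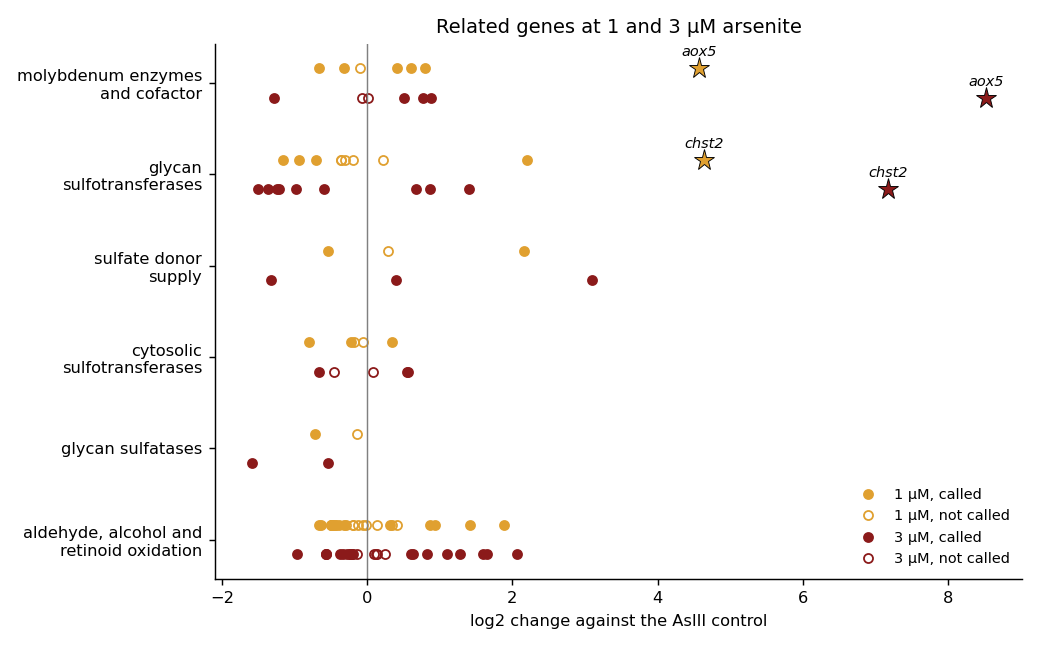
Log2 change against the AsIII control at 1 µM (orange) and 3 µM (dark red) for the genes of 6 lists, 1 point per gene, filled where called at an adjusted p below 0.05. Stars mark aox5 and chst2, whose changes are a description with no test. At 3 µM the stars lie at 8.52 and 7.18, which follows from the choice of these genes for a large rise. The highest of the other genes is slc26a2 at 3.09.

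CHST2 needs the sulfate donor PAPS, which is made from sulfate that enters the cell through transporters. Of 3 measured genes of sulfate donor supply, 2 rose and 1 fell at 3 µM AsIII, where 36.0% of all genes rose and 35.1% fell. slc26a2, a sulfate transporter of the cell surface, went from 18.7 ± 4.87 (SD) normalised reads to 86.8 ± 21.6 at 1 µM and 163 ± 11.6 at 3 µM, a rise of 2.15 ± 0.21 and 3.09 ± 0.21 (SE; limma adjusted p = 1.3e-08 and 1.1e-11). At 250 µM AsSug it fell by 2.63 ± 0.73, to 5.19 ± 7.01 (limma adjusted p = 0.00573), a level within the limit that a count of 0 allows there.

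papss2b, a synthase of PAPS, rose by 0.40 ± 0.14 at 3 µM (limma adjusted p = 0.0122), a call lost with library totals (0.28, adjusted p = 0.0611). bpnt2, whose Golgi enzyme clears the by-product of sulfation, fell by 1.32 ± 0.12 at 3 µM AsIII (limma adjusted p = 2e-09). Both sulfatases of glycans measured under a symbol fell at 3 µM, as did 35.1% of all genes. arsb fell by 1.59 ± 0.21 and gnsb, whose enzyme removes the 6-sulfate of N-acetylglucosamine, by 0.53 ± 0.07 (limma adjusted p = 5.3e-07 and 3.2e-07).

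Of 5 cytosolic sulfotransferases, which sulfate small molecules rather than glycans, 2 rose and 1 fell at 3 µM AsIII (median 0.09, or -0.03 with library totals) and 1 rose and 2 fell at 1 µM (median -0.18), against 36.0% of all genes rising and 35.1% falling at 3 µM and 29.8% and 27.2% at 1 µM. sult6b1 fell by 0.67 ± 0.10, while sult1st6 and sult2st3 rose by 0.56 ± 0.09 and 0.55 ± 0.18 at 3 µM (limma adjusted p = 5.3e-06, 9.4e-06 and 0.00797). Of 25 genes of aldehyde, alcohol and retinoid oxidation, 8 rose and 8 fell at 3 µM (median -0.15), so the shares at 3 µM were near those of all genes. At 1 µM 5 rose and 11 fell (median -0.19), or 5 and 8 with library totals, where 29.8% of all genes rose and 27.2% fell. The largest changes at 3 µM were rises in genes of carotenoid and retinol oxidation, of 2.06 ± 0.15 in bco1l, 1.65 ± 0.12 in rdh1 and 1.597 ± 0.0869 in dhrs9 (limma adjusted p = 6.9e-11, 4.7e-11 and 3e-13). The larger change of aox5 is a property of its choice.

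The 6 lists hold 50 genes beside aox5 and chst2. Of these, 31 were called at 1 µM AsIII and 37 at 3 µM, where 57.0% and 71.1% of all genes were called. The library of fish 1 at 0.1 µM AsIII, which stood apart, was part of that model. Without it the calls over all genes went from 10779 to 12476 at 1 µM and from 13441 to 14540 at 3 µM. At 250 µM AsSug 39 of the 50 were called, where 63.0% of all genes were. At 0.1 µM AsIII (0.0106% of all genes called), 5 µM AsSug (0.106%) and 10 µM AsSug (0.0159%) 0 of the 50 were called by limma, edgeR or DESeq2. An unadjusted limma p below 0.05 was found for 4, 2 and 1 of the 50. Of all 18901 genes, 1473, 1324 and 1117 had one. At 50 µM AsSug (0.561% of all genes called) aldh5a1, for succinate semialdehyde dehydrogenase, rose by 0.53 ± 0.12 (limma adjusted p = 0.0441). This call was lost without fish 1, 2, 4 or 5, each alone. Its changes at 5 and 10 µM were 0.27 ± 0.12 and 0.22 ± 0.12, not called (limma adjusted p = 0.682 and 0.874). At 250 µM AsSug aldh5a1 rose by 3.13 ± 0.19 (limma adjusted p = 4.5e-09).

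Over the 54 libraries the log2 levels of aox5 and chst2 correlated with r = 0.897, a description that rests on the 12 libraries in which both are high. Ordered by r over all genes, chst2 was rank 272 for aox5, and aox5 was rank 95 for chst2. The genes with a symbol most like aox5 by the same measure were ahsa1a (r = 0.966), top1a (0.963), usp19 (0.959), dnajb1a (0.957) and dnaja (0.956). ahsa1a encodes an activator of the chaperone HSP90, and its mean level was 701, 2224 and 4164 normalised reads at 0, 1 and 3 µM AsIII. Those most like chst2 were sugt1 (0.942), cnppd1 (0.934), zgc:114041 (0.931), bag3 (0.931) and odad4 (0.930). bag3, for a partner of the chaperone HSP70, had 223, 2954 and 33925 normalised reads at 0, 1 and 3 µM. In all, 251 genes reached r = 0.9 with aox5 and 83 with chst2.

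Genes next to the pair in the reference order were compared, since no source used here gives the strand setting of the counts. The comparison covers 1 side of each gene. On the other side, the pseudogene LOC106574360 beside aox5 and the non-coding RNA gene LOC123728988 beside chst2 were not measured. Distance and strand of the neighbours were not used. LOC106574295, the measured neighbour of aox5, stood at 330 ± 33.9 (SD) normalised reads in the AsIII control. It was 0.23 ± 0.11 higher at 1 µM (limma adjusted p = 0.0724) and rose by 0.72 ± 0.11 at 3 µM (adjusted p = 2.7e-06). trpc1, a cation channel gene beside chst2, was not called at 1 µM (-0.25 ± 0.17, limma adjusted p = 0.219) or 3 µM (-0.30 ± 0.17, adjusted p = 0.1101). pcolce2b, the next gene and a helper of collagen processing, rose by 1.23 ± 0.11 and 0.64 ± 0.11 (limma adjusted p = 3.3e-09 and 1.8e-05). Salmon carry many duplicated genes, and reads shared with a near-identical copy could not be told apart.

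Markers of other cell types moved with arsenite as well, and in bulk samples a change in the share of a cell type and a change of RNA per cell cannot be told apart. The 11 hepatocyte markers summed to 566237 to 689342 normalised reads at 3 µM AsIII, below every control. Of the 11, 8 were called lower and 0 higher (10 and 0 with library totals), where 35.1% of all genes fell and 36.0% rose. The 3 measured of 8 stellate and fibroblast markers went from 296 to 644 in controls to 982 to 1473 at 1 µM and 1588 to 2116 at 3 µM, nearly all of it timp2, while fn1a fell by 1.43 ± 0.21 at 3 µM (limma adjusted p = 2.7e-06). The 2 measured of 7 endothelial markers went from 147 to 230 up to 409 to 547 at 3 µM, with esamb rising by 1.401 ± 0.09 and kdr falling by 1.13 ± 0.33 (limma adjusted p = 2.7e-12 and 0.00444).

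Macrophage and granulocyte markers (3 of 6) summed to 1469 to 1935 normalised reads at 3 µM against 2532 to 3251 in controls. Of these, cd68 fell by 0.82 ± 0.12 and mpeg1.1 rose by 1.11 ± 0.21 (limma adjusted p = 1.8e-06 and 8.1e-05), while lyz rose by 0.60 ± 0.22 (adjusted p = 0.0184), a call lost with library totals (adjusted p = 0.0621). The sums for cholangiocytes (2 of 5) and erythrocytes (1 of 5) overlapped their controls, at 3039 to 3373 against 2847 to 3527 and at 222 to 356 against 210 to 395. Within the cholangiocyte sum, which anxa4 dominates, jag1b rose from 28.4 ± 5.19 to 59.1 ± 7.83 normalised reads (SD), by 1.04 ± 0.13 (SE; limma adjusted p = 3.6e-07). None of 6 lymphocyte markers was listed under its symbol. Listed genes all reached 10 reads in at least 12 libraries, so a missing marker may have had too few reads or another name. The part of these shifts in the rise of aox5 and chst2 was not tested.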

How the data were processed

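RNA of 54 libraries, 6 fish in each of 9 groups, had been sequenced. HISAT2, featureCounts of Subread and DESeq2 1.40.2 are named per the submitters' processing notes, whereas the build, annotation, strand setting and handling of multi-mapped reads were not given in the sources used here. Each deposited signal is a read count divided, before deposit, by a size factor of its library, as the values show: a divisor fitted to the lowest values of each library gave whole reads for 100% of values within 0.11 reads (largest deviation 0.102). Columns of per-sample values left unused numbered 0. Names came from a RefSeq table of Ssal_v3.1, which matched 18900 of 18901 identifiers, 6224 with a symbol, and gave the order of neighbouring genes. No sequence was used.

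After adding 1, the log2 of each deposited value entered limma 3.58.1 in R 4.3.3 (empirical Bayes with a mean trend). Fish was a term of each model, all 18901 genes were kept, tests were two-sided, and calls were made where the Benjamini-Hochberg adjusted p over the whole table was below 0.05. One model covered the AsIII groups, another the AsSug groups up to 50 µM, and 250 µM had a model with its control alone. Numbers pair the libraries because cells of the same fish went to every group: same-fish libraries correlated across genes with a median r of 0.234 against -0.0432 for other pairs (AsIII), 0.364 against -0.0744 (AsSug to 50 µM) and 0.0963 against -0.0296 (250 µM).

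The genes, the lists and the tests were chosen with earlier results of these data known. Named beside aox5 and chst2 were measured relatives (aldehyde oxidases, xanthine dehydrogenase, chst genes), the 3 largest changes of each list among genes called at 3 µM AsIII, and the 5 genes with a symbol most correlated with each. Lists were matched by symbol alone, so copies without one are not counted. suox, hs2st, aldh5a1, LOC106574295, trpc1, pcolce2b and the markers were named outside that rule, some after their values were seen. Alternatives were library totals, TMM factors, an added 0.5 or 5, a filter (a value of 10 in 6 libraries), no fish term, only the groups compared, edgeR 4.0.16 and DESeq2 1.42.0 on whole reads, each fish left out, and an exact sign-flip permutation test. For 250 µM AsSug, whose main model already held its control alone, "only the groups compared" was instead a model of all AsSug groups. It called 14206 genes at 250 µM in place of 11904. Leaving out the library of fish 1 at 0.1 µM AsIII or of fish 2 at 250 µM AsSug, and the alternatives for the relations over fish, were chosen after seeing the data. Reads without molecular identifiers are not independent molecules, so intervals and the limit of 3 reads cover counting error only. Of the statistics, the limma fit alone was tested on simulated reads, drawn without differences between fish. Changes were set in genes drawn at random, so the low counts of aox5 and chst2 were not examined separately.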

Additional observations from a re-analysis of the deposited data

Results flagged for a closer look

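In 1 of the 18 combinations of gene and group, a single fish lay far from the other 5. At 0.1 µM AsIII, chst2 had 16.8 normalised reads in fish 1, from 12 reads, and 0 to 2.32 in the others. The gap to its nearest neighbour was 0.862 of the group's whole range, above Dixon's 95% critical value for 6 samples. Chance alone marks about 1 in 20 groups. The same library stood apart across the table, with 4083 genes more than 2-fold from the median of its group, and it held 0 reads of aox5. The part of that library's difference in the chst2 value was not tested.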

How the results depend on the processing

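The rise of both genes at 1 and 3 µM AsIII kept its direction under every alternative run: 3.72 to 4.89 and 7.61 to 8.79 (log2) for aox5, and 3.33 to 5.11 and 5.79 to 7.69 for chst2. The lower ends for chst2, 3.33 and 5.79, came with 5 added in place of 1, which shrinks changes from few reads by construction. With low values filtered out, neither gene remained in the AsSug fits. None of the 8 AsSug tests passed under any alternative. DESeq2 gave no adjusted p for the 2 genes up to 50 µM, and the smallest p of the sign-flip permutation test was 0.03125 by design (adjusted values 0.75 to 0.96875). Uncalled AsSug changes near 0 turned sign: aox5 at 50 µM with 0.5 added (-0.0025), aox5 at 250 µM with edgeR (0.19), DESeq2 (0.15) and without the 250 µM library of fish 2 (0.18), and chst2 at 10 µM with 5 added (0.0495), edgeR (0.16) and DESeq2 (0.0659). Leaving out 1 fish moved aox5 from -0.21 to 0.0804 at 10 µM, -0.30 to 0.31 at 50 µM and -0.52 to 0.18 at 250 µM, and chst2 from -0.33 to 0.40 at 10 µM and -0.39 to 0.12 at 50 µM. The cause was not tested.

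Without the replicate block the changes of aox5 and chst2 were the same by construction and none was called (at 250 µM adjusted p = 0.792 and 0.347). Over all genes the calls at 5, 10 and 50 µM AsSug went from 20, 3 and 106 to 0, 0 and 0, and at 0.1 µM AsIII from 2 to 1. DESeq2 called 34 at 5 µM, 12 at 10 µM and 10 at 0.1 µM AsIII, library totals 11 at 10 µM, and only the groups compared 34 at 50 µM. At 0.1 µM AsIII edgeR, TMM factors, library totals, an added 5 and only the groups compared gave 0. With 1 fish left out these counts ran from 0 to 8 at 0.1 µM AsIII and from 7 to 38, 2 to 15 and 31 to 179 at 5, 10 and 50 µM AsSug.

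The 1 list gene called at 50 µM AsSug was not called (count 0) with library totals, no replicate block, only the groups compared or DESeq2, and 0 to 1 were called with 1 fish left out. With library totals papss2b at 3 µM AsIII missed the threshold (0.28). With 1 fish left out, the correlation over fish of chst2 ran from -0.556 to 0.140 and that between the genes at 3 µM from -0.621 to 0.356. Scaling by library totals put the median change over all genes at -0.14 in place of -0.02 at 3 µM AsIII, at -0.11 in place of -0.0025 at 0.1 µM AsIII and at 0.09 in place of -0.20 at 250 µM AsSug, and 0 called list genes changed sign. Depth limits both genes in the 7 groups other than 1 and 3 µM AsIII, which held 10 to 51 reads of either gene each.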
